A study of Mus musculus with 10 samples.

Results

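Brown adipocytes from C57BL/6 mice were kept for 3 days with BML-260 or with DMSO, its solvent, and the contrast between these groups over all genes is described here. It rests on 4 of the 10 RNA sequencing libraries of the series, 2 with BML-260 for 3 days and 2 with DMSO for 3 days, chosen by the treatment and time labels. The other 6 libraries, 2 each of DMSO for 1 day, BML-260 for 1 day and ISO, which the labels list at 1 day and do not spell out, entered the same fit to estimate the spread. The labels name no genotype beyond the strain, and they give no dose, no age or sex of the animals and no account of how the adipocytes were obtained. Whether both libraries of a group had their own culture is not stated either, so a p-value here reflects library-to-library spread that may be technical.

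Brown adipocytes oxidise fatty acids to make heat, and the uncoupling protein Ucp1 lets protons back into the mitochondrial matrix without making ATP. In the animal, noradrenaline acts on the beta-3 adrenergic receptor, cyclic AMP rises, lipolysis frees fatty acids and transcription of Ucp1 goes up. BML-260 is known as an inhibitor of the dual-specificity phosphatase encoded by Dusp22, an enzyme linked to the JNK branch of the MAP kinase pathways.

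At 3 days the assigned counts came to 19296922 and 18938924 in the DMSO libraries and to 18458916 and 20039083 in the BML-260 libraries. Log2 CPM (counts per 1 M scaled reads) of the libraries of a group correlated across genes with r = 0.995 both for BML-260 and for DMSO. The summed level of 12 brown adipocyte markers ran from 7301 to 7455 CPM with DMSO and from 7781 to 7927 CPM with BML-260. Fabp4, a fatty acid binding protein, made up most of the sum, at 4674 and 4524 CPM with DMSO and 5729 and 5647 CPM with BML-260, a rise larger than that of the whole sum, while adiponectin, Adipoq, fell from 938 and 935 CPM to 458 and 438 CPM. Of the 11 that could be tested 4 rose and 4 fell, and Dio2, which activates thyroid hormone, never exceeded 3 counts at 3 days. Markers of endothelial cells stayed at or below 2.08 CPM in sum, and those of red cells and lymphocytes at or below 0.103 CPM. Summed preadipocyte and fibroblast markers were at 783 to 846 CPM with DMSO and 523 to 537 CPM with BML-260, and those of smooth muscle and pericytes at 426 to 438 CPM and 255 to 278 CPM. White adipocyte markers were at 104.6 to 105.6 CPM and 79.7 to 88.1 CPM, with 3 of 7 fallen, and Schwann cell and neuron markers at 11.4 to 12.9 CPM and 7.73 to 7.74 CPM, with 3 of 4 fallen. In bulk libraries fewer cells of a type and less RNA per cell cannot be told apart.

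After 3 days of BML-260, 5407 genes had changed, 35.5% of those tested, by edgeR's quasi-likelihood test with Benjamini-Hochberg adjusted p under 0.05, the threshold for "rose" and "fell" throughout. Of these, 2625 rose (17.3% of tested genes) and 2782 fell (18.3%), and the median log2 fold change of all tested genes was -0.02. Upper-quartile scaling moved the split to 2077 genes up and 3313 down, or 38.5% of calls upward against 48.5%, while other settings turned it the other way. DESeq2 called 2159 up and 1578 down (57.8% upward), and the upward share was 56.2% without the ISO libraries and 54% with relative log expression scaling. Leaving out DMSO replicate 1 or 2 lowered the falls to 1720 or 1713 genes, with 2256 or 2242 up (56.7% upward for both). The median shift of the log2 fold changes from the main fit was 0.028 without either DMSO library. It was 0.0018 and -0.0014 without BML-260 replicates 1 and 2. How far this shift accounts for falls lost without a DMSO library, here and in the lists below, was not tested. Most changes were small, with a median absolute log2 fold change of 0.33 among the called genes. At an absolute value of 0.5 or more 412 genes rose and 1095 fell, and at 1 or more 107 rose and 330 fell. Large changes therefore lay mostly on the lower side.

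The genes that rose were the more abundant ones. Their median level was 68.0 CPM, against 23.7 CPM for genes that fell and 13.8 CPM for genes that did not pass. Together the genes that rose summed to 343783 and 340234 CPM in the DMSO libraries and 419080 and 417447 CPM in the BML-260 libraries. The genes that fell went from 223361 and 224547 CPM to 177216 and 174766 CPM. CPM rests on scaled library sizes, so these sums are not exact shares of the reads. The genes were chosen by their change in these same libraries, so the direction of both shifts was given. Genes that changed by 1 or more on the log2 scale were mostly of low level, and only 20 of the 107 that rose and 54 of the 330 that fell reached a mean of 10 CPM in either group. Median exon length was 4113 bases for genes that rose, 4897 bases for those that fell and 3836 bases for the rest. By GENCODE class, 39.5% of 11950 protein-coding genes, 22.0% of 822 pseudogenes and 17.6% of 931 other RNA genes were called.

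**Figure D1:**
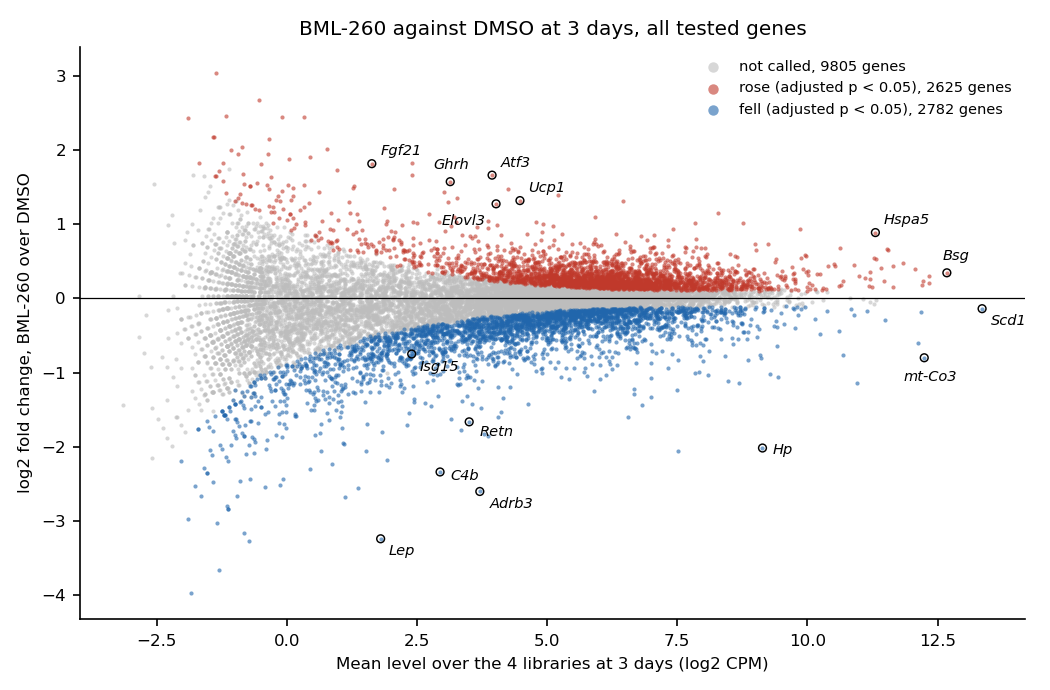
Log2 fold change of BML-260 over DMSO at 3 days against the mean log2 CPM of the 4 libraries, 1 point per tested gene, red for the 2625 genes that rose and blue for the 2782 that fell. Changes beyond 2 in size lie mostly below 0, and the most abundant genes moved little.

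By the naming rule, the largest rise among genes reaching 10 CPM was that of Atf3, a transcription factor induced by stress, on chromosome 1 from 191170296 to 191218039 (GRCm38). It was at 7.73 and 6.96 CPM in the DMSO libraries and at 23.9 and 22.8 CPM in the BML-260 libraries, a 3.17-fold rise (log2 fold change 1.66, SE 0.10, edgeR adjusted p = 1.84e-12). The groups lay apart, which the rule required. Ghrh, the growth hormone-releasing hormone, on chromosome 2 from 157329497 to 157347506, rose from 4.22 and 4.59 CPM to 13.3 and 13 CPM. Acox2, a peroxisomal acyl-CoA oxidase, rose from 20.7 and 19.7 CPM to 55.4 and 51.2 CPM, and the stress-responsive Ndrg1 from 196 and 191 CPM to 439 and 426 CPM. For the last gene the log2 fold change was 1.16 (SE 0.05, edgeR adjusted p = 2.14e-16). Further down the rule's list stood the zinc finger gene Prdm15 at 1.10, Dusp8, a phosphatase that acts on MAP kinases, at 1.09, the guanine nucleotide exchange factor kalirin, Kalrn, at 1.04 and the diacylglycerol kinase Dgkh at 1.03. Itgad, an integrin chain at 1.31, has exons that overlap those of Cox6a2, which also rose (0.86). It shares 11.3% of its transcript 31-mers with Itgax, and 6.15% of those of Cox6a2 are shared with it.

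On the lower side Adrb3, the beta-3 adrenergic receptor, on chromosome 8 from 27225776 to 27250616, led with 21.3 and 23.5 CPM under DMSO and 3.40 and 3.93 CPM under BML-260 (log2 fold change -2.61, SE 0.13, edgeR adjusted p = 1.63e-14). Apol6, an apolipoprotein L family gene, fell from 140 and 142 CPM to 46.9 and 45.9 CPM. Its exons overlap those of myoglobin, Mb, which fell from 286 and 299 CPM to 67.8 and 72.9 CPM. The shared part is small: 3.03% of the transcript 31-mers of Apol6 occur in any other gene, and 2.38% of those of Mb occur in Apol6. Neither group overlapped the other for any of these genes, as the rule required. Pdzd2, a PDZ domain protein, fell from 157 and 172 CPM to 58.6 and 63.1 CPM. Cish, an inhibitor of JAK-STAT signalling, fell from 23.6 and 27.8 CPM to 9.98 and 7.80 CPM, and Vsir, an immune checkpoint protein, by 1.48 on the log2 scale. The remaining genes of the lower side were the matrix calcification inhibitor Mgp at -1.59 and the Wnt antagonist Apcdd1 at -1.63, beside C4b, Hp, Ccl2, Prtn3, Rasd1 and Retn. C4b, at 12.4 and 13.3 CPM with DMSO and 2.69 and 2.37 CPM with BML-260, shares 48.3% of its transcript 31-mers with C4a, so its counts are uncertain. Adrb3 shares 21.4% with Gm45470, whose exons overlap its own. Other genes named below also share 31-mers with another gene, among them Tagln (58.2%), Pgam1 (37.1%), Irs1 (30.6%), Cycs (26.2%) and Higd1a (20.6%). Such a share does not measure how far a count is off.

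**Figure D2:**
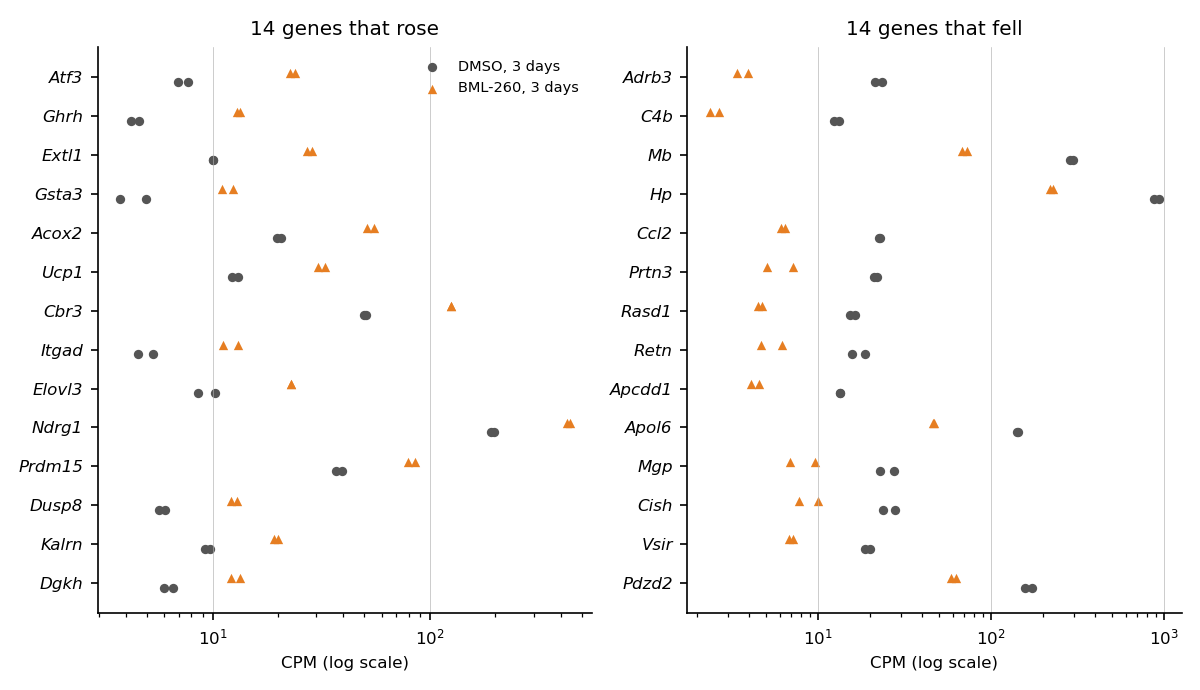
CPM in each of the 4 libraries at 3 days, on a log axis, for the 14 genes that rose most (left) and the 14 that fell most (right) by the naming rule; circles are DMSO and triangles BML-260. The libraries of a group lie close together, and the groups of every gene drawn are apart, which the rule required.

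Counted in reads moved rather than in fold, other genes led. Bsg, basigin, a chaperone of lactate transporters, went from 5736 and 5809 CPM to 7325 and 7355 CPM, a log2 fold change of 0.35. Hspa5, an abundant chaperone of the ER (endoplasmic reticulum), went from 1774 and 1775 CPM to 3281 and 3294 CPM, and the glycolytic isomerase Gpi1 from 2307 and 2239 CPM to 3528 and 3675 CPM. All of these rose. Gm12033, which also rose, shares 96.8% of its transcript 31-mers with Gapdh, and Gm10566 shares 73.1% with the pseudogene Gapdh-ps15, so their counts are uncertain. Among genes that fell, mt-Co3, BC069931, Gm13341 and Scd1 lost most, followed by fibronectin, Fn1, which went from 2029 and 2115 CPM to 1219 and 1215 CPM, and the lipoprotein lipase Lpl fell from 3213 and 3123 CPM to 2535 and 2641 CPM. Scd1, the stearoyl-CoA desaturase, fell by 0.14 (edgeR adjusted p = 0.0256), a call that was lost in some other settings.

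Genes of the brown fat program split. Of 23 tested effectors and regulators 4 rose and 8 fell, and the list's median was -0.09. The share called was 52.2%, against 35.5% of all tested genes. Over all tested genes 17.3% rose and 18.3% fell. Ucp1 rose from 12.3 and 13.1 CPM to 32.8 and 30.7 CPM (log2 fold change 1.32, SE 0.10, edgeR adjusted p = 4.59e-11), and Elovl3, an elongase of very long fatty acids, from 10.3 and 8.61 CPM to 22.9 and 22.9 CPM. Cpt1b, the muscle-type carnitine palmitoyltransferase, at 0.66, and Cidea, a lipid droplet protein, at 0.24, made up the 4. The genes that fell were mostly regulators: Prdm16, the transcriptional switch of the brown lineage, went from 16.5 and 15.4 CPM to 9.93 and 9.01 CPM (log2 fold change -0.75). The coactivators Ppargc1b and Ppargc1a fell by 0.51 and by 0.28, the nuclear receptor Esrrg by 0.53, and Ebf2, a brown precursor factor, by 0.48. Kcnk3, a potassium channel of brown fat, fell from 169 and 173 CPM to 108 and 97.8 CPM. The other 11 members of the list were not called.

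Of 38 tested genes of beta-adrenergic and cyclic AMP signalling 3 rose and 11 fell, or 7 without either DMSO library, with a median of -0.08. The 36.8% called is near the 35.5% of all genes. Adrb3 fell, as given above, while Adrb1, the beta-1 receptor, was at 11.5 and 12 CPM with DMSO and 12.3 and 10.2 CPM with BML-260 (log2 fold change -0.07, edgeR adjusted p = 0.678). The Adrb1 libraries overlapped between groups. Inside the cell, the G protein regulator Rgs2 fell from 141 and 149 CPM to 53.4 and 65.0 CPM, and the small GTPase Rasd1 from 15.2 and 16.2 CPM to 4.72 and 4.48 CPM. The phosphodiesterases that break down cyclic AMP fell as well, Pde4b by 0.53, Pde3b by 0.31, Pde8a by 0.29 and Pde4a by 0.23. The members that rose were Gnas, the stimulatory G protein, at 0.31, the CREB coactivator Crtc2 at 0.37 and the receptor kinase Grk5 at 0.39.

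**Figure D3:**
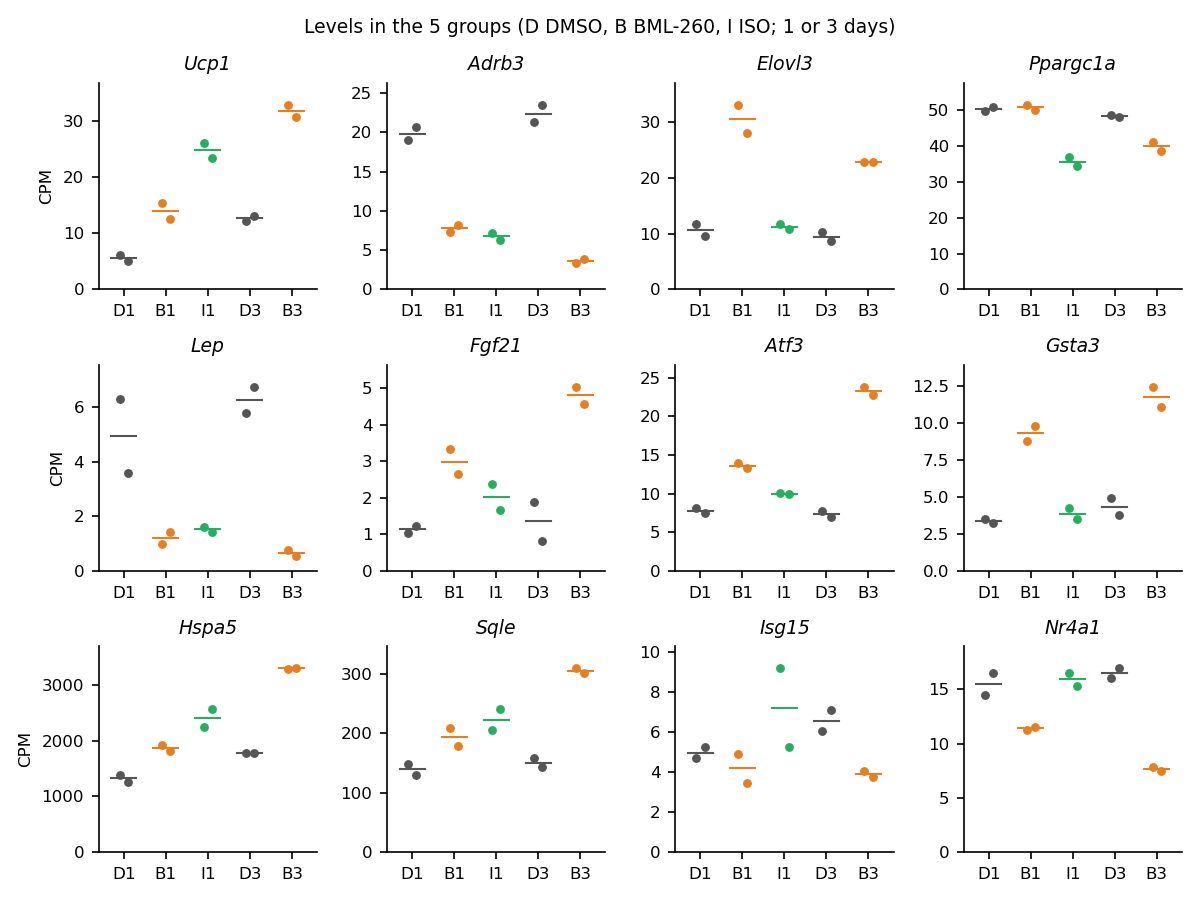
CPM of 12 genes in all 10 libraries, 1 panel per gene; dots are libraries, short lines group means, D is DMSO, B is BML-260, I is ISO, and the digit is days. Ucp1, Fgf21, Atf3, Hspa5 and Sqle are highest in the 3-day BML-260 libraries, and Adrb3, Lep and Nr4a1 lowest there.

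Transcription factors that build and maintain fat cells fell more often than they rose, 13 against 3 of 29 tested, with a median of -0.22. Cebpa, a factor that keeps adipocytes differentiated, went from 203 and 218 CPM to 111 and 109 CPM (log2 fold change -0.94, SE 0.07, edgeR adjusted p = 2.35e-11). Pparg, the master regulator of adipogenesis, was at 534 CPM in both DMSO libraries and at 386 and 393 CPM with BML-260. For both genes, which were picked among those called, the DMSO libraries stood above the BML-260 libraries. Their partners Rxrg and Rxra fell by 0.58 and by 0.26, the liver X receptor Nr1h3 by 0.45, the glucose-sensing Mlxipl by 0.39, Srebf1 by 0.37 and the glucocorticoid receptor Nr3c1 by 0.33. Klf4, at 0.68, was the largest of the 3 that rose.

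The hormones and other secreted factors of fat moved widely: 7 of 27 rose and 13 fell. Leptin, Lep, the satiety hormone, fell from 5.80 and 6.76 CPM to 0.768 and 0.554 CPM (log2 fold change -3.24, SE 0.29, edgeR adjusted p = 1.62e-09), and resistin, Retn, from 18.6 and 15.7 CPM to 6.20 and 4.68 CPM. Angptl4, an inhibitor of lipoprotein lipase, fell from 538 and 589 CPM to 232 and 277 CPM, and adipsin, Cfd, from 352 and 377 CPM to 181 and 175 CPM. Adiponectin fell alongside. In the other direction went the stress-induced hormones: Fgf21 was at 1.88 and 0.825 CPM with DMSO and 5.05 and 4.58 CPM with BML-260 (log2 fold change 1.82, SE 0.26, edgeR adjusted p = 3.62e-06), and Gdf15 rose from 16.9 and 19.2 CPM to 40.7 and 33.2 CPM. The DMSO libraries of Fgf21 differed from each other, at few counts.

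Of 34 genes of insulin signalling 17 fell and 5 rose, or 3 without BML-260 replicate 1, with a median of -0.23. The insulin receptor Insr fell by 0.30, its substrates Irs1 by 0.64, Irs2 by 0.45 and Irs3 by 1.41, the regulatory subunit of PI3 kinase Pik3r1 by 0.65 and the kinase Akt2 by 0.24. Igf1, insulin-like growth factor 1, fell from 26.3 and 26.8 CPM to 14.3 and 13 CPM. The glucose transporters went the other way: Slc2a1, the basal carrier, rose from 107 and 106 CPM to 168 and 154 CPM (log2 fold change 0.60), and Slc2a4, the insulin-driven carrier, by 0.12 (edgeR adjusted p = 0.0373), with libraries at 389 and 364 against 422 and 397 CPM.

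Lists of lipid handling genes had members called in both directions. Of 10 lipolysis genes 5 fell and 2 rose: hormone-sensitive lipase, Lipe, went from 489 and 482 CPM to 344 and 319 CPM, the monoglyceride lipase Mgll fell by 0.61, the triglyceride lipase Pnpla2 by 0.19 and Aqp7, the glycerol channel, by 0.87, from 133 and 136 CPM to 70.8 and 76.4 CPM. Of 18 droplet and fatty acid binding genes 7 rose and 5 fell. Plin2, a droplet coat protein, rose from 542 and 553 CPM to 772 and 812 CPM, whereas Plin4 fell from 682 and 725 CPM to 431 and 379 CPM. Coat proteins therefore moved in both directions. Of 21 genes of fatty acid synthesis and desaturation 8 rose and 6 fell, or 2 without BML-260 replicate 2 or either DMSO library: the desaturases Fads3, Fads1 and Fads2 were at 0.68, 0.34 and 0.27, while Acacb, an acetyl-CoA carboxylase, was at -0.30 and fatty acid synthase, Fasn, at -0.14. Pck1, which supplies glycerol phosphate in fat, fell from 13.7 and 15.9 CPM to 6.53 and 7.95 CPM. Of the 19 triglyceride synthesis genes 6 fell and 4 rose, so that 52.6% were called, against 35.5% of all genes.

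Of 84 tested subunits of the respiratory chain and ATP synthase 48 rose and 2 fell, with a median of 0.14. Cytochrome c, Cycs, rose from 63.8 and 62.2 CPM to 93.7 and 93.7 CPM, the complex I subunit Ndufs8 from 149 and 151 CPM to 194 and 196 CPM, and the muscle-type subunit Cox6a2 from 16.3 and 18.3 CPM to 31.8 and 31.1 CPM. The 2 that fell were Ndufb3 by 0.18 and Uqcrh by 0.16, with 0 falls left without BML-260 replicate 2 or DMSO replicate 2. Of 75 mitochondrial ribosome genes 25 rose and 6 fell, or 2 to 3 fell without BML-260 replicate 1 or either DMSO library, and of 31 genes of the citric acid cycle and pyruvate entry 14 rose and 2 fell. For the mitochondrial ribosome 41.3% were called, against 39.5% of protein-coding genes and 35.5% of all genes. Pdhb, of pyruvate dehydrogenase, rose from 806 and 785 CPM to 1172 and 1209 CPM, whereas Idh1, the cytosolic isocitrate dehydrogenase, fell from 297 and 290 CPM to 197 and 191 CPM. Rows for genes of the mitochondrial genome were on the lower side. All 12 tested were below 0, with 6 called and a median of -0.76, or 3 called without DMSO replicate 2, and mt-Nd3 went from 224 and 242 CPM to 145 and 117 CPM. Most of the 12 are transfer and ribosomal RNA genes, the other protein genes were not tested here, and mt-Co3 shares 99.9% of its 31-mers with the nuclear copy Gm28437, so the values cannot be given to one origin.

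Fatty acid oxidation in mitochondria was near balance, with 7 of 27 genes up, or 4 without BML-260 replicate 2, and 6 down, or 2 without BML-260 replicate 2 or either DMSO library, and a median of -0.02 that turned to 0.00 with relative log expression scaling. Hadha, of the trifunctional protein, rose from 898 and 861 CPM to 1144 and 1111 CPM, while Acad10 and Acad11, acyl-CoA dehydrogenases, fell by 0.49 and by 0.26. At 1 day 18 of the same 27 had risen and 0 had fallen, and for 9 genes the effect at 3 days was lower than at 1 day in the test of the difference itself. Of 36 peroxisome genes 8 rose and 5 fell, or 1 without BML-260 replicate 1 or either DMSO library, and the 36.1% called is near the 35.5% of all genes. The median of 0.01 turned to -0.025 with upper-quartile scaling. Called members included catalase, Cat, at 0.28 and the fatty acid importer Abcd2 at -0.98. Of 25 genes that break down branched-chain amino acids 4 rose and 8 fell, or 4 without BML-260 replicate 1 or 2 or DMSO replicate 2 and 0 without DMSO replicate 1. With all libraries 48% of these genes were called, against 35.5% of all genes.

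Of 25 glycolysis genes 14 rose and 2 fell, or 0 to 1 without any 3-day library, with a median of 0.26. Early steps were among those that rose, Hk2, hexokinase, from 227 and 201 CPM to 330 and 302 CPM and Pfkp, phosphofructokinase, from 321 and 306 CPM to 469 and 463 CPM. Pgam1 rose from 1171 and 1124 CPM to 1601 and 1504 CPM, Pgk1 by 0.42 on the log2 scale and lactate dehydrogenase Ldha by 0.28. For 9 genes of the list the effect was higher at 3 days than at 1 day. Targets of the hypoxia-inducible factors, several of them the same glycolytic genes, rose in 16 of 26 cases and fell in 3, with the mitochondrial protein Higd1a going from 57.6 and 56.6 CPM to 86.0 and 82.1 CPM and the membrane carbonic anhydrase Car9 at 0.46. Hif1a itself was at 82.9 and 82.6 CPM and 91.5 and 87.2 CPM and was not called (edgeR adjusted p = 0.0845). Of the other carbonic anhydrases Car6 rose by 1.66, while Car3, abundant in fat, fell from 263 and 246 CPM to 109 and 108 CPM and Car2 from 39.5 and 37.5 CPM to 21.7 and 22.5 CPM.

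Cholesterol genes gave one of the highest shares of calls, 20 of 27 up and 3 down with a median of 0.22. Squalene epoxidase, Sqle, rose from 158 and 144 CPM to 310 and 301 CPM (log2 fold change 1.02, SE 0.07, edgeR adjusted p = 1.1e-11), and lanosterol synthase, Lss, from 175 and 163 CPM to 299 and 291 CPM. Sc4mol and Mvd, also of the synthesis pathway, were at 0.90 and 0.89, the farnesyl diphosphate synthase Fdps at 0.48 and the regulator Srebf2 at 0.42. The exporters of cholesterol moved opposite to the synthesis genes: Abcg1 fell from 96.4 and 103 CPM to 52.5 and 50.4 CPM and Abca1 from 267 and 261 CPM to 179 and 171 CPM.

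Genes of the integrated stress response, which the factor ATF4 switches on when translation initiation is curbed, rose in 26 of 38 cases and fell in 2, with a median of 0.30. Atf4 itself rose from 549 and 551 CPM to 778 and 765 CPM, and Ddit3, which encodes CHOP, from 406 and 393 CPM to 636 and 624 CPM (log2 fold change 0.65, SE 0.04, edgeR adjusted p = 5.85e-12). Asparagine synthetase, Asns, rose from 152 and 146 CPM to 216 and 215 CPM, the mitochondrial folate enzyme Aldh1l2 from 459 and 448 CPM to 759 and 758 CPM and Aldh18a1, of proline synthesis, from 158 and 155 CPM to 242 and 241 CPM. Each is known as a target of ATF4. Of 20 cytosolic aminoacyl-tRNA synthetases 16 rose and 0 fell (median 0.31), with Wars at 0.52, Iars at 0.51, Vars at 0.48 and Sars at 0.42. The amino acid transporter gene Slc7a3, at -1.41, was the larger of the 2 falls, at only 1.83 and 1.96 CPM with DMSO.

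A composite element bound by ATF4 or CHOP with C/EBP proteins was searched as TGATGNAA on both strands of promoter windows, which run from 250 bases before to 50 bases after the start site in RefSeq (GRCm38.p6). It was present in 12 of 32 members of the integrated stress response with a window (37.5%) and in 5 of 12 synthetases (41.7%), against 2.61% of 9896 tested genes. The stretches around it are shown for 4 members that rose, with the element in capitals, 5′ to 3′ on the strand of the gene, to let the shared letters be compared.
Atf3: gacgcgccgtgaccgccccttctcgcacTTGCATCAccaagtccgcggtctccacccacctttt
Chac1: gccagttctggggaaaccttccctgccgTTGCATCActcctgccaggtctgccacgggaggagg
Herpud1: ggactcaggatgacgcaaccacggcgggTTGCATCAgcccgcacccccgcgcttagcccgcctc
Asns: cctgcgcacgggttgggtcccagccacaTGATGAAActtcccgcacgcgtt
They lie at chr1:191183408-191183471 on the minus strand, chr2:119351021-119351084 and chr8:94386289-94386352 on the plus strand, and chr6:7693210-7693260 on the minus strand. In Atf3, Chac1 and Herpud1 the element reads on the opposite strand to the gene and has the same 8 letters, and in Asns it reads along the gene. Chac1, which degrades glutathione, rose by 0.52 and Herpud1, of ER protein disposal, by 0.21. Not every gene with the element rose: Slc7a11, Slc1a4, Vldlr and Pck2 hold it and were not called. The stress response list was made of genes known for that response, so its higher share does not bear on BML-260. The cAMP response element, TGACGTCA, was in 4.0% of 25 beta-adrenergic and cyclic AMP genes with a window. It was in 3.12% of the stress response members, against 3.59% of all 9896. Among 15 clock and output genes the E-box, CACGTG, was in 26.7%, against 11.7%, and the D-box, TTATGNAA, in 13.3%, against 2.35%.

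Chaperones of the ER rose in 18 of 27 cases and fell in 0, with a median of 0.24. Besides Hspa5 these were Hyou1, from 178 and 176 CPM to 258 and 263 CPM, the secreted factor Manf, from 88.0 and 90.3 CPM to 127 and 136 CPM, and the oxidase Ero1l, from 2463 and 2172 CPM to 3788 and 3490 CPM. The sensors of the unfolded protein response were called as well, Ern1 at 0.37, Eif2ak3 at 0.34 and Atf6 at 0.31. Of the list 7 genes had a higher effect at 3 days than at 1 day and 0 a lower one. Cytosolic and mitochondrial heat shock genes rose in 13 of 22 cases, or 8 without BML-260 replicate 1, and fell in 2, or 1 without either BML-260 library or DMSO replicate 2, with the small heat shock protein Hspb8 going from 119 and 113 CPM to 179 and 178 CPM. Proteasome subunits rose in 26 of 37 cases by up to 0.51 (Psmd8). The 3 that fell, 1 without DMSO replicate 2, included the interferon-inducible subunits Psmb9, by 0.68, and Psmb8, by 0.36. Of 39 lysosome and autophagy genes 14 rose, or 8 without BML-260 replicate 2, and 5 fell, or 1 to 2 without BML-260 replicate 1 or either DMSO library. The autophagy receptor Sqstm1 rose from 780 and 827 CPM to 1156 and 1237 CPM and Gabarapl1 from 175 and 181 CPM to 272 and 305 CPM.

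Targets of NRF2, the factor that answers oxidants and electrophiles, had the highest median of the lists, 0.39, with 24 of 32 up and 1, the aldehyde oxidase Aox1, down. Heme oxygenase, Hmox1, rose from 621 and 644 CPM to 1189 and 1235 CPM (log2 fold change 0.94, SE 0.06, edgeR adjusted p = 1.61e-12), sulfiredoxin, Srxn1, from 97.1 and 104 CPM to 163 and 162 CPM, and the carbonyl reductase Cbr3 from 49.9 and 51.1 CPM to 126 and 125 CPM. The quinone reductase Nqo1 went from 13.3 and 15.2 CPM to 21.6 and 19.5 CPM. Iron storage rose with them, the ferritin chains Fth1 and Ftl1 at 0.54 and 0.80, although Ftl1 shares much of its sequence with copies in the genome. Glutathione transferases as a family did not share one direction: 6 of 23 rose, with Gsta3 going from 4.93 and 3.76 CPM to 12.4 and 11.1 CPM, and 5 fell, or 2 without BML-260 replicate 1 or DMSO replicate 1, all 3 called theta class members among them (Gstt1, Gstt2 and Gstt3 between -0.59 and -0.52).

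The core of the antioxidant response element, searched as TGACNNNGC on both strands, was found in 10 of 27 NRF2 list members with a window (37.0%), against 17.1% of all 9896. Because members were listed as NRF2 targets, this contrast does not bear on BML-260. The stretches of 3 members that rose are shown, with the core in capitals.
Gsta3: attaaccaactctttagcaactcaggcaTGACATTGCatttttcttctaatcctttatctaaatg
Gclm: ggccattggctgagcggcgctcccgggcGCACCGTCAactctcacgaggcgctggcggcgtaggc
Txnrd1: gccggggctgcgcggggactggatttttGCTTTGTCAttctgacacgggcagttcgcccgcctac
All are on the plus strand, at chr1:21240436-21240500, chr3:122245395-122245459 and chr10:82859086-82859150. In Gclm and Txnrd1 the core reads against the gene. Txnrd1, thioredoxin reductase, was at 0.49 and Gclm, a subunit of glutathione synthesis, at 0.20 on the log2 scale.

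Of 23 immediate early genes, which answer signals quickly, 12 fell and 5 rose, or 3 without BML-260 replicate 1. Nr4a1, an orphan nuclear receptor induced by cyclic AMP, fell from 16.1 and 17 CPM to 7.90 and 7.50 CPM (log2 fold change -1.10, SE 0.11, edgeR adjusted p = 1.02e-08), Egr1 from 253 and 281 CPM to 176 and 171 CPM, and Fos from 14.9 and 16.0 CPM to 10.6 and 9.21 CPM. Jun, the AP-1 subunit that JNK phosphorylates, was at 70.1 and 70.3 CPM and 79.1 and 70.6 CPM and was not called (edgeR adjusted p = 0.221). Dusp22, the labelled compound's known target, was at 69.3 and 72.9 CPM with DMSO and 64.0 and 72.4 CPM with BML-260 (log2 fold change -0.06, SE 0.06, edgeR adjusted p = 0.471), with groups that overlapped. RNA levels do not measure the activity of the enzyme. Of 23 dual-specificity phosphatases 7 rose, or 4 without BML-260 replicate 2, and 5 fell, or 1 to 3 without another library. With all libraries 52.2% of these phosphatases were called, against 35.5% of all genes. Dusp8 went from 6.05 and 5.67 CPM to 12.9 and 12.1 CPM, while the ERK phosphatase Dusp6 fell by 0.53 and Dusp1 from 51.3 and 50.8 CPM to 37.3 and 35.6 CPM. MAP kinases and JNK pathway genes were called in 8 of 24 cases, 33.3%, near the 35.5% of all genes, 4 in each direction, with 2 falls left without BML-260 replicate 2 or DMSO replicate 1.

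Genes of the circadian clock and its output were called in 12 of 19 cases, or 63.2%, against 35.5% of all genes. Per1 rose from 92.4 and 91.4 CPM to 133 and 140 CPM, the repressors Cry1 and Bhlhe41 rose by 0.62 and by 0.67, and the output factors Hlf and Tef fell by 0.64 and by 0.28. Proliferation genes fell in 13 of 38 cases, or in 5 to 8 without BML-260 replicate 1 or either DMSO library, and rose in 5, or 3 without either BML-260 library or DMSO replicate 2. With all libraries 47.4% of them were called, against 35.5% of all genes. The cyclin Ccnd1, at -1.09 and at most 4.28 CPM, had the largest change of the list. Targets of p53 rose in 11 of 19 cases and fell in 1. Gadd45a, a stress and DNA damage gene, went from 55.9 and 56.4 CPM to 106 and 100 CPM and the cell cycle inhibitor Cdkn1a from 186 and 188 CPM to 247 and 228 CPM.

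The remaining lists had smaller shifts or mixed directions. The share called was 43.4% for the cytosolic ribosome and 40.7% for cytochromes P450 and aldehyde or carbonyl enzymes. Of protein-coding genes 39.5% were called, and of all tested genes 35.5%. For the cytosolic ribosome all calls were rises, whereas 17.3% of all tested genes rose. Of 76 cytosolic ribosome proteins 33 rose and 0 fell, with a median of 0.13, but 17 and 20 rose without BML-260 replicates 1 and 2. Of 54 cytochromes P450 and aldehyde or carbonyl enzymes 10 rose and 12 fell, or 7 without BML-260 replicate 2 or DMSO replicate 1. Iron and heme genes rose in 8 of 25 cases, Hmox1 among them, and fell in 5, so that 52% were called, against 35.5% of all genes. The ferrireductase Steap4 went from 143 and 141 CPM to 66.4 and 55.4 CPM. Of 16 replication-dependent histones 3 fell, or 1 without BML-260 replicate 2 or either DMSO library. The 18.8% of histones called, all falls, is near the 18.3% of all tested genes that fell. Of 18 small nucleolar and nuclear RNAs none was called by edgeR.

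**Figure D4:**
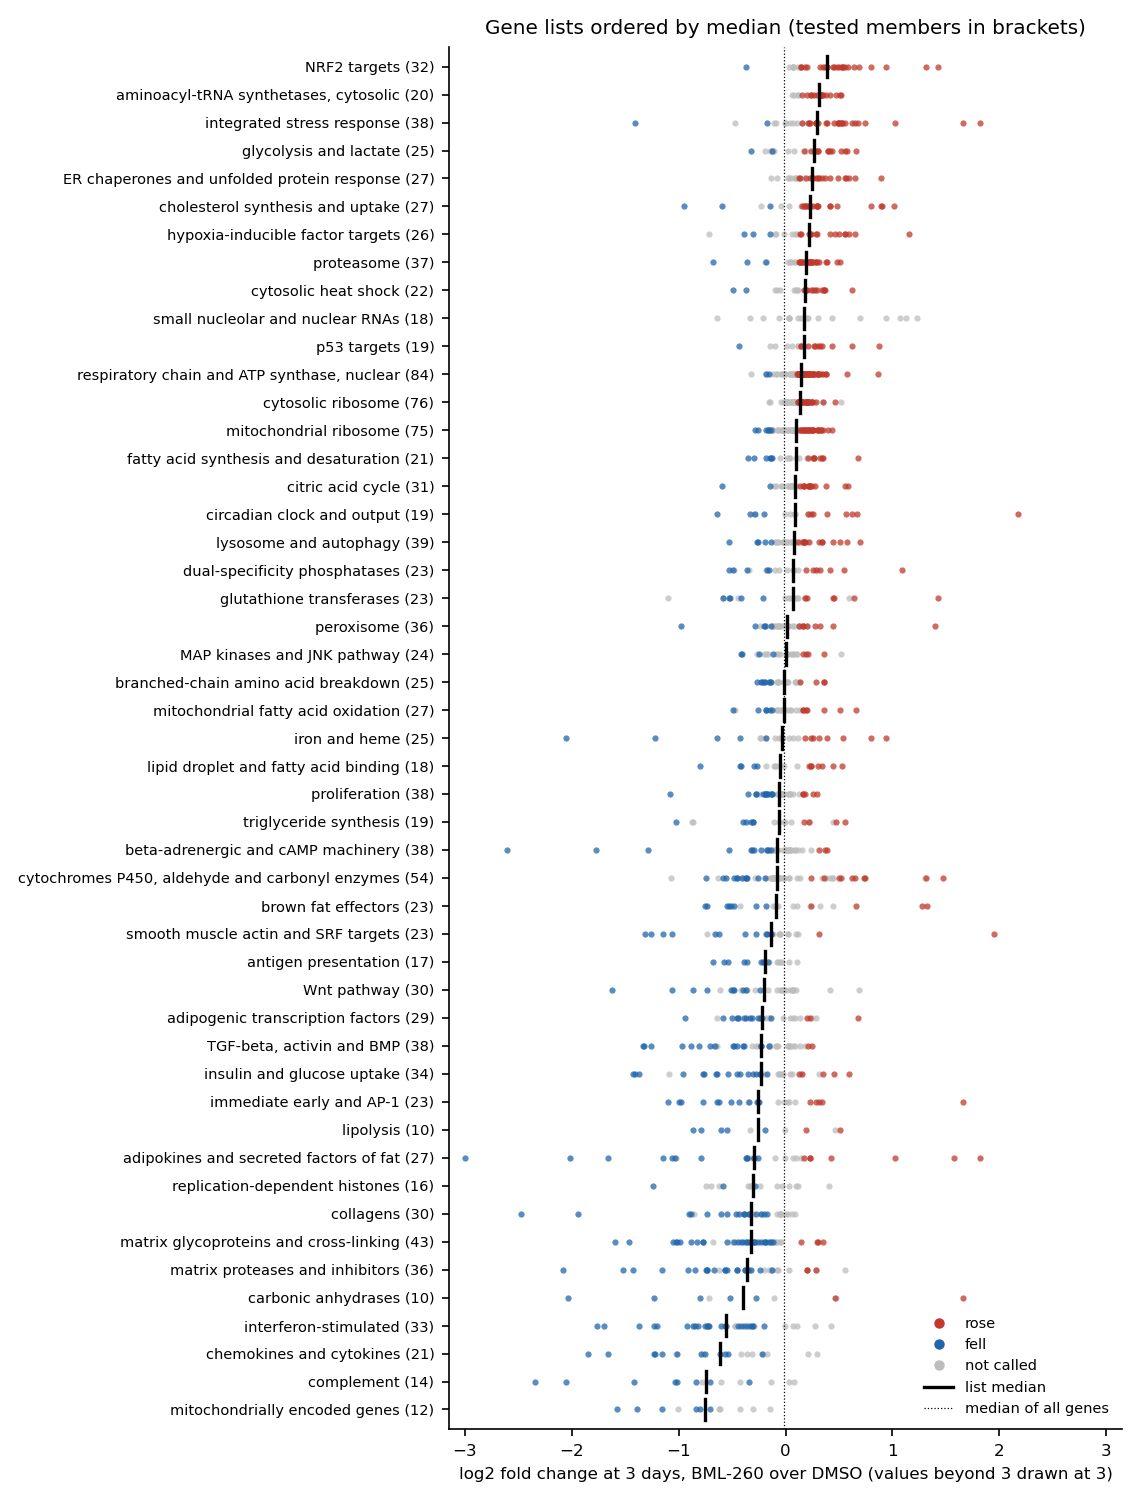
Log2 fold change at 3 days of the tested members of each gene list, 1 point per gene, red if it rose, blue if it fell and grey if not called, with lists ordered by median (black bar) and the median of all genes dotted. NRF2 targets are highest at 0.39, and complement and mitochondrially encoded genes lowest at -0.74 and -0.76.

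Matrix genes fell broadly. None of 30 tested collagens rose and 17 fell (median -0.32), from the fibrillar Col1a2, at 1738 and 1871 CPM with DMSO and 1323 and 1340 CPM with BML-260, to the rarer Col27a1, at 290 and 339 CPM and 215 and 214 CPM. Of 43 glycoprotein and cross-linking genes 30 fell and 4 rose. Fibrillin, Fbn1, went from 309 and 337 CPM to 157 and 167 CPM (log2 fold change -0.99, SE 0.05, edgeR adjusted p = 3.94e-14), thrombospondin, Thbs1, from 668 and 711 CPM to 397 and 413 CPM, and the elastic fibre protein Fbln5 fell by 1.03. The 4 that rose were enzymes and a chaperone that modify collagen in the ER: Plod1, P4ha1, P4ha2 and Serpinh1, at 0.14 to 0.35. Matrix proteases and their inhibitors fell in 21 of 36 cases and rose in 3, with the aggrecanase Adamts5 going from 63.8 and 66.9 CPM to 38.7 and 39.8 CPM and the inhibitor Timp3 from 14 and 12.6 CPM to 6.14 and 5.79 CPM. Summed preadipocyte markers fell beside these lists, as given above, in 8 of 9 tested markers, and their part in the result was not tested.

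Of 23 targets of serum response factor 12 fell and 2 rose, or 1 without BML-260 replicate 1: smooth muscle actin, Acta2, went from 81.0 and 87.7 CPM to 36.7 and 34.0 CPM, Tagln from 51.6 and 52.9 CPM to 26.0 and 24.0 CPM and the light chain Myl9 from 15 and 16.3 CPM to 6.03 and 6.54 CPM. Of 8 tested smooth muscle and pericyte markers 6 fell, and whether those cells account for the list was not tested. Genes of TGF-beta, activin and BMP signalling fell in 16 of 38 cases and rose in 2, or 1 without either BML-260 library or DMSO replicate 1. The activin receptor Acvr1c, typical of fat, fell from 187 and 176 CPM to 72.1 and 71.9 CPM (log2 fold change -1.33, SE 0.06, edgeR adjusted p = 9.39e-16), the TGF-beta receptor Tgfbr2 from 158 and 162 CPM to 95.8 and 100 CPM, and the antagonists Grem1 and Fst by 1.33 and by 1.26. In the Wnt pathway 10 of 30 genes fell and 0 rose. The 33.3% that fell compares with 18.3% of all tested genes that fell, and with 35.5% called in either direction. Those that fell included the secreted inhibitors Sfrp2 by 1.06 and Sfrp1 by 0.86 and the receptor Fzd4 by 0.48.

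Innate immune genes showed the lowest medians among nuclear lists. Of 14 complement genes 8 fell and 0 rose, with a median of -0.74: C3, the central component, went from 852 and 817 CPM to 423 and 400 CPM (log2 fold change -1.02, SE 0.05, edgeR adjusted p = 2.75e-15), and the regulator Clu fell by 2.06. Of 21 chemokines and cytokines 12 fell and 0 rose, or 6 fell without BML-260 replicate 2 or DMSO replicate 2. Ccl2, which draws monocytes, fell from 22.9 and 22.4 CPM to 6.47 and 6.09 CPM, Ccl7 from 29.7 and 27.7 CPM to 13.4 and 14.9 CPM, and the macrophage growth factor Csf1 from 148 and 159 CPM to 99.0 and 101 CPM. Macrophage markers, by contrast, were low in both groups, at 6.65 to 6.71 CPM in sum with DMSO and 8.05 to 9.42 CPM with BML-260, where Cd68 rose and 6 of 10 markers had at most 3 counts in every 3-day library.

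Of 33 genes known to be induced by interferon 24 fell, or 15 without DMSO replicate 2, and 0 rose, or 1 without BML-260 replicate 1 or DMSO replicate 2, with a median of -0.56. The guanylate-binding proteins fell, Gbp3 from 25.2 and 28.9 CPM to 10.7 and 12.7 CPM and Gbp2 from 41.4 and 44.1 CPM to 28.7 and 29.2 CPM, and the RNA sensor Ifih1 from 19.1 and 19.6 CPM to 10.9 and 12.5 CPM. Isg15, a ubiquitin-like modifier, was at 6.05 and 7.12 CPM and 4.06 and 3.77 CPM (log2 fold change -0.75, SE 0.21, edgeR adjusted p = 0.00635). The groups did not overlap for any of these, but they were picked among called genes, so this is no separate support. At 1 day 3 members had fallen, and for 6 genes the effect was lower at 3 days than at 1 day. Of 17 antigen presentation genes 8 fell, or 4 without DMSO replicate 2, and 0 rose, with Nlrc5, their class I activator, at -0.54 and beta-2 microglobulin, B2m, at -0.21.

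The interferon-stimulated response element, searched on both strands as a pair of GAAA blocks with any 2 bases between them, was in 13 of 24 members with a window (54.2%), against 3.61% of all 9896 genes. Since members were listed as induced by interferon, the higher share does not bear on BML-260. The stretches of 4 members that fell are shown with the element in capitals, where overlapping or neighbouring copies run on.
Isg15: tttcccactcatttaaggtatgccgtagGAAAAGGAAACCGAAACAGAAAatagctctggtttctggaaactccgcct
Ifit3: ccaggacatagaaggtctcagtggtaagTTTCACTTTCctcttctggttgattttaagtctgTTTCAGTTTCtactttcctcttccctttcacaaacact
Gbp2: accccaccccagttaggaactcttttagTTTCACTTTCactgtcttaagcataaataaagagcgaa
Gbp3: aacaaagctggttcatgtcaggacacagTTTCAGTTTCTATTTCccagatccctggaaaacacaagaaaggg
They lie at chr4:156200847-156200924 on the minus strand, and on the plus strand at chr19:34583345-34583444, chr3:142620576-142620641 and chr3:142559971-142560042. Isg15 holds 3 overlapping copies along the gene, Ifit3 and Gbp3 2 each and Gbp2 1 against it. Rsad2, Ifit1 and Stat2 also hold the element and were not called. Ifit3, an antiviral effector, fell from 11.2 and 13.9 CPM to 5.92 and 7.30 CPM.

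The effect at 3 days was then set against that at 1 day, which rests on other libraries. At 1 day 2728 genes had been called, 17.9% of those tested. Of these, 65.9% were also called at 3 days, while 33.2% of the 3-day calls had been called at 1 day. Of 1797 genes called at both times 897 rose and 850 fell at both, and 50 had opposite directions. The difference between the effects, tested as an interaction, was called for 1284 genes, 8.44%, with 598 higher at 3 days (3.93%) and 686 lower (4.51%). It was called for 285 of the genes changed at both times, and 211 of these had a larger change at 3 days in the same direction, 24 a smaller one. Of the 3610 genes called at 3 days alone the difference was called for 813, so for the others the times were not shown to differ. The count of 1284 fell to 659 without DMSO 1 day replicate 2, 678 and 794 without DMSO 3 days replicates 1 and 2, and 760 without BML-260 3 days replicate 1.

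By the naming rule the largest differences upward were those of Lrp8, an apolipoprotein E receptor, Ghrh, the phosphatase Pgp, Dusp8, Scand1 and Atf3. Lrp8 was at 5.19 and 4.69 CPM with DMSO and 10.7 and 9.46 CPM with BML-260 at 3 days, a log2 fold change of 1.03 against -0.14 at 1 day (difference 1.16, SE 0.23, edgeR adjusted p = 0.00246). Downward they were Adrb3, Prox1, C4b, Retn, Hcar2 and Gbp3. Prox1, a homeobox factor, fell from 17 and 17.2 CPM to 6.58 and 6.19 CPM at 3 days, and Hcar2, the receptor of beta-hydroxybutyrate that restrains lipolysis, from 17 and 18.6 CPM to 8.39 and 7.05 CPM, against 1-day values of -0.35 and -0.19. Ucp1 stood at 1.32 at both times, a difference of 0.00. Adrb3, by comparison, went on from -1.35 at 1 day to -2.61 at 3 days.

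**Figure D5:**
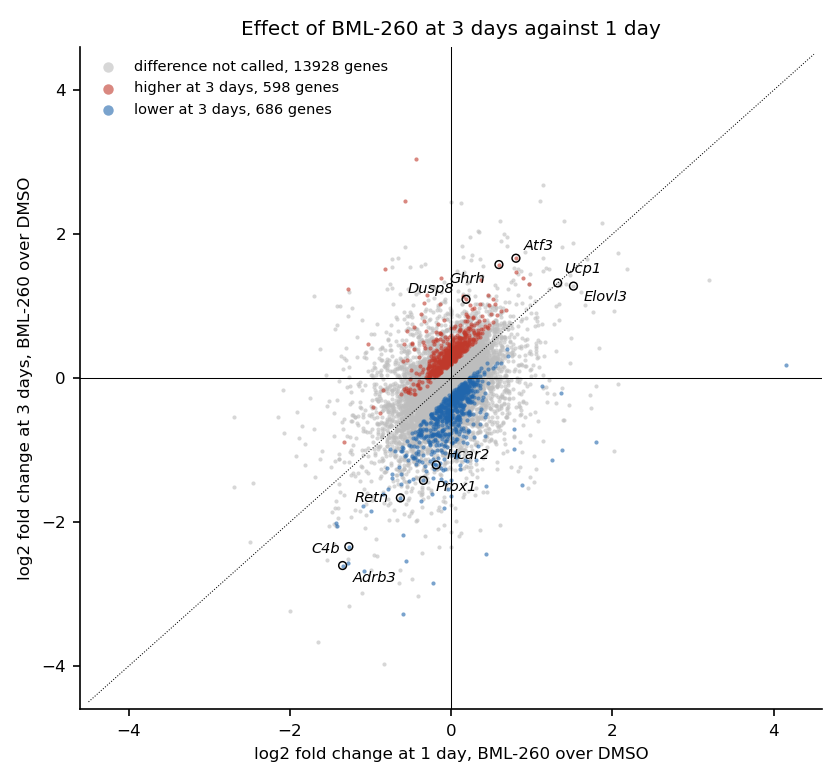
Log2 fold change of BML-260 over DMSO at 3 days against that at 1 day, 1 point per tested gene, red or blue where the difference between times was called (598 genes higher and 686 lower at 3 days). Ucp1 lies on the dotted line of equal effect, and Adrb3, C4b and Retn lie below it.

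The authors' deposited table for this contrast lists 1838 genes as higher and 1347 as lower with BML-260. Of the genes listed in the authors' deposited table, 99.1% were called here with the same sign, and none with the opposite sign. A further 2250 genes were called here and are not in the authors' deposited table, 813 upward and 1437 downward.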

How the data were processed

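Bulk RNA was sequenced from mouse brown adipocytes in 10 libraries, 2 per group, and the comparison uses 4 of them, with the others in the same fit. The authors deposited a table of raw read counts per gene for all libraries, and a list of genes for this contrast with log2 fold changes and adjusted p-values of the authors, per the file headers. Per the submitters' processing notes, TopHat2 2.1.1, DESeq2, bedtools and bcl2fastq 2.17.1.14 were used with the builds mm9 and mm10, without a stated role, and the counting rule, its use of strand and the annotation are not stated in the labels or headers.

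From the counts, edgeR 4.0.16 in R 4.3.3 was run with TMM scaling, filterByExpr (minimum count 10, minimum total 15), 1 mean per group over all libraries and the quasi-likelihood test, with Benjamini-Hochberg adjustment over all tested genes and a threshold of 0.05. Standard errors are the absolute log2 fold change over the square root of F, and log2 CPM used a prior count of 2. Assigned counts ran from 16955918 to 21185675 per library, and the mean chi-square per gene between the libraries of a group was 1.92 to 3.09, above sampling noise. Of 24640 gene rows 9428 were too low to test. The script was tested on simulated data with 100 genes changed by 0.5 and 100 by 1 on the log2 scale, all averaging at least 10 CPM. Recovery was 97% and 100% in the 3-day comparison and 89% and 100% for the difference between times. False calls made up 9.22% in the 3-day comparison, above the nominal threshold, and 4.06% for the difference. Recovery of smaller changes and of changes in genes of lower level was not simulated.

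Genes were named by rule: the 14 of largest fold change each way whose groups did not overlap and whose higher group averaged 10 CPM or more, the 8 of largest CPM difference each way, the 4 of smallest p per list, the 6 of largest difference between times each way, genes near absence in 1 group, and Ucp1, Adrb3, Dusp22 and Ppargc1a. Other list members named in the text were picked after their values were seen. The members, the 49 gene lists and the rule were chosen with earlier results of these data known. Annotation came from GENCODE M21 (GRCm38), which matched 90.2% of tested rows, and promoter sequences from RefSeq on GRCm38.p6. Alternatives were RLE and upper-quartile scaling, other filters, DESeq2 1.42.0, a replicate block, fewer libraries, each replicate left out and, chosen after seeing the data, leaving out mitochondrial rows.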

Additional observations from a re-analysis of the deposited data

Results flagged for a closer look

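Tested as an interaction (edgeR, adjusted over all genes), the effects of BML-260 at 3 days and 1 day differed for 1284 genes (8.44%). Among these were 26 of the genes named by fold change, by difference between times or always named. Those named by difference between times, 6 each way, were picked from the genes called in this test. Their passing it was therefore fixed in advance. Values are the log2 effect at 3 days minus that at 1 day, over 2 libraries per group.

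The effect was higher at 3 days for 11 genes. The difference was 1.16 for Lrp8, 0.98 for Ghrh, 0.97 for Pgp, 0.91 for Dusp8, 0.87 for Scand1 and 0.86 for Atf3. It was 0.71 for Ndrg1, 0.67 for Extl1, 0.59 for Prdm15, 0.51 for Acox2 and 0.34 for Cbr3. Pgp and Scand1 were below 0 at 1 day, at -0.31 and -0.46, and above 0 at 3 days, at 0.66 and 0.40.

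The effect was lower at 3 days for 15 genes. The difference was -1.26 for Adrb3, -1.08 for Prox1, -1.07 for C4b, -1.03 for Retn, -1.02 for Hcar2 and -1.0004 for Gbp3. It was -0.91 for Pdzd2, -0.86 for Ccl2, -0.85 for Vsir, -0.76 for Apol6 and -0.75 for Cish. It was -0.67 for Rasd1, -0.63 for Mb, -0.59 for Hp and -0.29 for Ppargc1a. For Ppargc1a the 1-day effect was 0.01 and the 3-day effect -0.28 (edgeR adjusted p of the difference = 0.0347).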

How the results depend on the processing

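The count of genes changed at 3 days ran from 3737 with DESeq2 to 5858 with only the 4 libraries compared, and no gene called at first was called in the opposite direction in any setting run. DESeq2 called 1578 genes lower at 3 days, and for the difference between times 721 genes, 307 of them lower. Without the ISO libraries 926 genes had a higher effect at 3 days than at 1 day. Leaving out 1 library gave 3811 to 4144 genes at 3 days, 1884 to 2256 higher and 1713 to 2104 lower, and 659 to 1163 genes for the difference, 272 to 557 higher and 307 to 606 lower. Upper-quartile scaling split the difference into 470 higher and 807 lower. For Dusp22, log2 fold change at 3 days, never called, ran from -0.15 to 0.027 when 1 library was left out, with 0.027 without BML-260 3 days replicate 1 and 0.00726 without DMSO 3 days replicate 2. The cause was not tested. Of 222 results on named genes 211 kept their side of the threshold in every setting run for them. Leaving out mitochondrial rows, chosen after seeing the data, gave 5405 genes.

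With the replicate block 5555 genes were called at 3 days and 1474 for the difference. Same-numbered libraries correlated at 0.06 at 3 days after removal of group means. With 2 libraries per group this value cannot show whether they shared a culture, animal or day, which the labels do not state.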
